A study of Gallus gallus with 12 samples.

Results

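Liver and abdominal fat of chickens on the normal diet were compared by RNA sequencing, in order to describe which genes set the identity of each tissue. The members were chosen by their labels alone: the 3 liver libraries (NN liver) and the 3 abdominal fat libraries (NN fat), which are 6 of the 12 libraries of the series. The birds were Xinghua chickens labelled 8 weeks old, and the methods of the study describe them as purebred females without the sex-linked dwarf mutation. The methods give this age for the start of feeding on the diets, so the birds were older at slaughter. The other 6 libraries hold the same tissues of normal chickens on a high-fat diet (HN liver and HN fat). They are used below to show whether a difference between the tissues was also seen there and to test whether it changed with diet. They also enter a fit of all 12 libraries and a check of the replicate numbers. The labels number the libraries of each tissue as repeats 1 to 3, and the methods count them as separate livers and fats. The p-values therefore measure the spread between these samples. Each library was made from whole tissue, so its RNA came from all the cells that the tissue held.

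The liver secretes most plasma proteins and lipoproteins, makes glucose, bile acids and ketone bodies, breaks down amino acids and drugs, and in birds is the main site of fatty acid synthesis and of uric acid production. Abdominal fat takes up the fatty acids that the lipoproteins carry, through lipoprotein lipase on its capillaries, and stores them as triglyceride in adipocytes. These adipocytes sit in a connective tissue of collagen, fibroblasts and vessels. The transcription factor HNF4A and the FOXA proteins keep hepatocyte genes active, whereas PPARG and C/EBP proteins do so for adipocyte genes.

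The deposited values were FPKM (fragments per kilobase of transcript, scaled to a fixed number of mapped fragments), which are comparable between genes because transcript length is divided out. Of 18332 genes in the files, 17647 were above 0 in at least 1 of the 6 libraries and 12492 had a mean of at least 1 FPKM, and these 12492 were tested on log2(FPKM + 1) with limma. Log2 fold changes are liver over fat on this scale, which understates the change of genes that are low in either tissue. A gene was called when its Benjamini-Hochberg adjusted p over all tested genes was below 0.05. In total 9491 genes were called (76.0% of those tested), of which 2075 were higher in liver (16.6%) and 7416 were higher in fat (59.4%). With a fold change of at least 2-fold as well, 1357 genes (10.9%) were higher in liver and 4265 genes (34.1%) were higher in fat. The changes of more than 5 log2 units ran the other way, with 212 genes higher in liver and 108 higher in fat.

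The excess of genes higher in fat depended on scale. Summed FPKM was 571235 to 582894 in the livers and 472622 to 504508 in the fats, and the 10 highest genes took 22.5% to 25.6% of it in the livers against 10.1% to 11.8% in the fats. Across the tested genes the log2 fold changes had a median of -0.65 as deposited, -0.06 after quantile normalization, 0.02 after median-ratio scaling and -0.90 after rescaling every library to the same sum. The split of calls moved with it, to 3729 higher in liver against 4305 higher in fat after quantile normalization, 4085 against 3898 after median-ratio scaling, and 1810 against 8772 after rescaling. Of the genes called past 2-fold as deposited, 1235 of 1357 higher in liver and 2079 of 4265 higher in fat were called past 2-fold in that direction under all 4 scalings. Median changes of gene groups below are to be read against -0.65. Their counts of calls are to be read against the 16.6% of all tested genes higher in liver and the 59.4% higher in fat. A member with a mean below 1 FPKM in 1 tissue passed the filter through the other tissue, so its direction was set in advance.

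Replicates of a tissue were close to each other and far from the other tissue. Across genes, Pearson's r of log2(FPKM + 1) was 0.973 to 0.974 between livers, 0.970 to 0.973 between fats and 0.543 to 0.558 between a liver and a fat. Each liver held 11177 to 11272 genes at 1 FPKM or more, and each fat held 12104 to 12412 such genes. An on-off pattern, with at least 10 FPKM in every library of 1 tissue and below 1 FPKM in every library of the other, was found for 190 genes expressed in liver (1.52%) and 167 genes expressed in fat (1.34%). The differences were largely present on the high-fat diet as well. There, 14.8% of 12511 tested genes were called higher in liver and 50.7% higher in fat. Of the 1324 genes higher in NN liver past 2-fold that were tested in HN, 1246 were called the same way, and 3997 of 4189 were for fat, with 0 called the other way in either direction. A limma test of whether the tissue difference changed with diet, without the replicate number in the fit, called 0 of 12544 genes (0.0%). The smallest adjusted p was 0.118, and 570 genes had an unadjusted p below 0.05. With no effect at all, a share of 0.05 of the genes would pass that limit, and 570 of 12544 is less than this. With the replicate number within each diet as a block, 4 genes were called (0.0319%), which were APOF, THRSPB and those listed as LOC101748650 and LOC100857622.

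**Figure D1:**
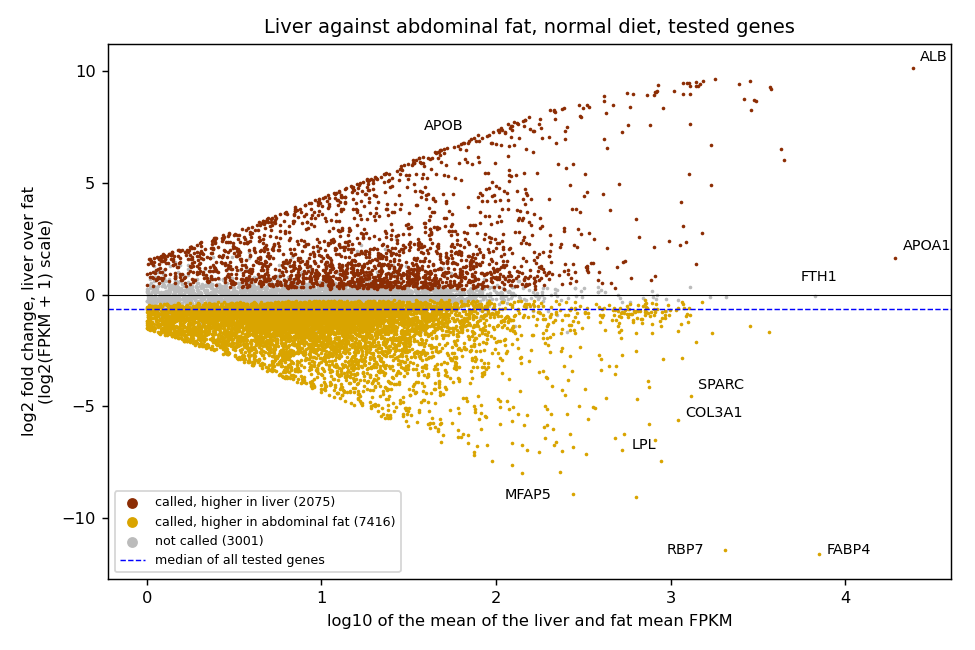
Each point is 1 of 12492 tested genes, with the log10 mean FPKM of the tissues on the x axis and the log2 fold change, liver over fat, on the y axis. Of the named genes, ALB has the largest difference towards liver and FABP4 the largest towards fat, FTH1 lies near 0, and the slanting edges at low levels are the limit that the pseudocount of 1 sets.

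The tissue labels were checked against the defining genes of hepatocytes and adipocytes. All 14 tested hepatocyte markers were higher in the livers, with a median log2 fold change of 9.24. For adipocytes only 6 markers (FABP4, RBP7, ADIPOQ, PLIN1, LPL and CIDEC) were picked from a longer list. Of the 35 tested genes of that list 26 were higher in fat, 7 were higher in liver and 2 were not called. In livers 1, 2 and 3 the 6 markers were at a median of 0.953%, 0.692% and 0.549% of their fat mean. CIDEC was the highest, at 13.995% to 24.2%. In the fats, 13 hepatocyte markers were at a median of 0.0954%, 0.191% and 0.0587% of their liver mean in fats 1, 2 and 3, with a range over markers and libraries of 0.0188% to 0.731%. APOA1, the remaining marker, was at 28.8% to 35.6% of its liver mean in the fats. Fat 2 had the highest median of hepatocyte markers, and the part of these low levels in the fat values of other liver genes was not tested.

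Serum albumin was the most abundant transcript of the livers. ALB was at 55672, 53525 and 37626 FPKM in livers 1 to 3, against 35.7, 96.5 and 20.7 FPKM in fats 1 to 3. The tissues did not overlap, and the means differed 961-fold. The log2 fold change of 10.14 ± 0.50 (SE, limma adjusted p = 2.06e-06) was the largest towards liver of all named genes. Next came GC, the vitamin D-binding protein, with 3175, 3492 and 4048 FPKM in the livers and 3.67, 5.04 and 2.04 FPKM in the fats (9.65 ± 0.24). The other genes among the 15 largest changes towards liver included PIT54, a plasma protein of birds (9.57), APOH (9.50), AHSG (9.46), ORM1 (9.37) and AMBP (9.34). The fibrinogen chains FGA (9.54), FGG (9.47) and FGB (9.45) and TTR, the thyroxine carrier (9.33), were among them too. PSPH, the enzyme of the last step of serine synthesis, also belonged to them, at 11148, 6163 and 5017 FPKM in the livers and 7.72, 21.2 and 5.98 FPKM in the fats (9.31 ± 0.47). Its levels varied between livers more than those of GC, but the lowest liver was far above the highest fat.

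**Figure D2:**
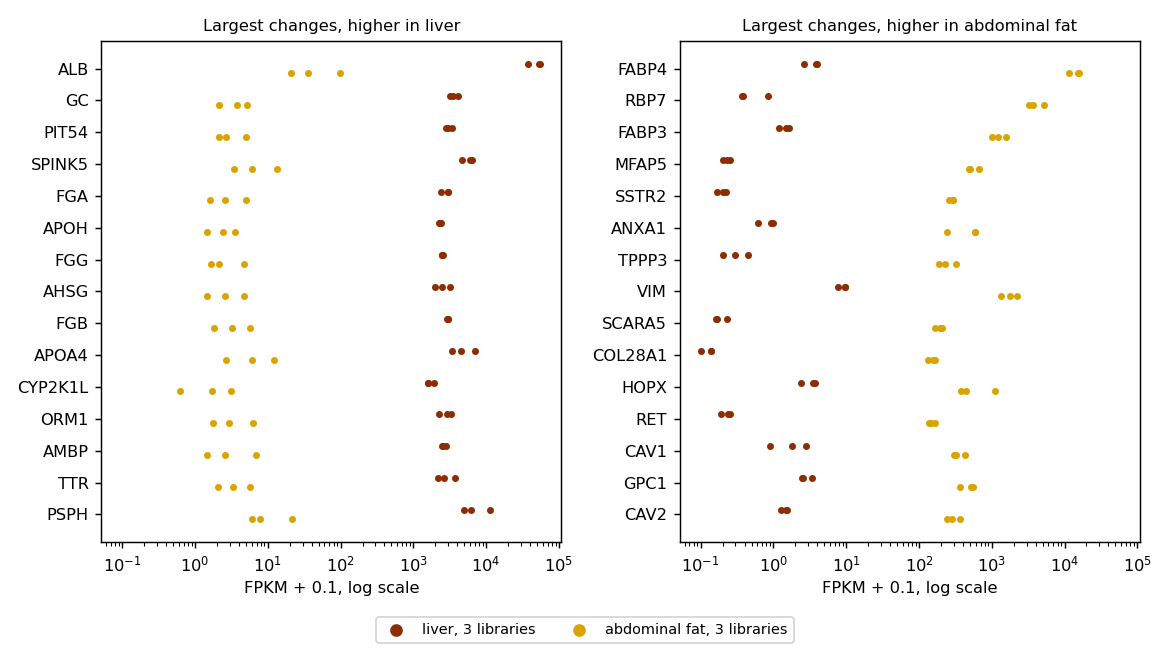
FPKM plus 0.1 on a log axis for the 15 genes with the largest change towards liver (left panel) and the 15 with the largest change towards abdominal fat (right panel), each point being 1 library. The livers and fats are separated in all 30 genes, and ALB at 37626 to 55672 FPKM in the livers lies furthest to the right.

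Plasma proteins as a group took a large part of the liver transcriptome. The 35 matched genes summed to 15.9% ± 1.29 of the FPKM of the livers and 0.143% ± 0.0149 of the FPKM of the fats (SD, n = 3 each). Of 33 tested members 31 were higher in liver, 1 was higher in fat and 1 was not called, with a median log2 fold change of 7.81. Of the 31, 11 had a fat mean below 1 FPKM and passed the filter through their liver level. TF, which carries iron, was at 2256, 2305 and 2955 FPKM in the livers, against 40.6, 68.3 and 70.6 FPKM in the fats (5.40 ± 0.23), so it remained well expressed in fat. The exception was FN1, fibronectin, which is both a plasma and a matrix protein. It was at 52.2, 83.6 and 72.0 FPKM in the livers and 341, 293 and 302 FPKM in the fats (-2.18 ± 0.18, limma adjusted p = 2.50e-05). VTN, vitronectin, another adhesion protein of plasma, was in contrast at 5637, 6108 and 6276 FPKM in the livers and 19.6, 13.4 and 9.08 FPKM in the fats.

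The clotting genes did not all follow the plasma proteins. Of 24 tested members 18 were higher in liver and 6 were higher in fat (median 4.87). Of the 18, 9 had a fat mean below 1 FPKM, and of the 6, 3 had a liver mean below 1 FPKM. The liver side held the secreted zymogens and inhibitors made by hepatocytes, such as F2, prothrombin, at 740, 672 and 641 FPKM in the livers and 0.83, 1.46 and 0.83 FPKM in the fats (8.40 ± 0.15), F9 (8.23 ± 0.17) and PROC, protein C (6.78 ± 0.18). The 6 genes higher in fat are known from vessel walls, fibroblasts and macrophages. TFPI, the inhibitor of the tissue factor pathway, was at 0.09, 0.12 and 0.12 FPKM in the livers and 12.4, 18.8 and 16.3 FPKM in the fats (-3.91 ± 0.17). F13A1, the transglutaminase chain that cross-links fibrin, was at 0.11, 0.17 and 0.40 FPKM in the livers and 14.7, 43.1 and 38.8 FPKM in the fats (-4.63 ± 0.38). VWF (-3.31), THBD (-2.50), F3, tissue factor (-2.45), and F8 (-1.85) were the others. Endothelial markers moved the same way, as given below, and their part in these differences was not tested. In bulk tissue, fewer cells of a type and less RNA per cell cannot be told apart.

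Complement showed a similar arrangement with more genes not called. Of 24 tested members 16 were higher in liver, 2 were higher in fat and 6 were not called (median 3.36). Of the 16, 8 had a fat mean below 1 FPKM. C3, the central component, was at 2238, 2545 and 2955 FPKM in the livers and 7.63, 12.7 and 16.9 FPKM in the fats (7.64 ± 0.26), and the pore-forming genes C8B (7.97) and C8A (7.80) changed as much. C7, which belongs to the same pore, was higher in fat instead, at 23.3, 16.4 and 21.4 FPKM in the livers and 124, 106 and 134 FPKM in the fats (-2.53 ± 0.16). CLU, clusterin, was the other gene higher in fat (-3.20 ± 0.34). CFD, known as adipsin in mouse adipocytes, was high in both tissues, at 616, 653 and 1042 FPKM in the livers and 683, 875 and 1070 FPKM in the fats. The groups overlapped and the difference was not called (-0.20 ± 0.24, limma adjusted p = 0.47).

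Among lipoprotein genes, 11 of 13 tested members were higher in liver (median 5.69). Of the 11, 6 had a fat mean below 1 FPKM and passed the filter through their liver level. The group took 7.25% ± 1.10 of the liver FPKM and 1.92% ± 0.224 of the fat FPKM. APOB, the structural protein of very low density lipoprotein, was at 170, 146 and 156 FPKM in the livers and 0.12, 0.20 and 0.03 FPKM in the fats (7.15 ± 0.11). MTTP, which loads lipid onto APOB, was at 71.2, 66.2 and 63.4 FPKM in the livers and 0.02, 0.09 and 0.00 FPKM in the fats. Both genes were well expressed in every liver and near 0 in every fat. APOC3 (8.67), APOA4 (9.45) and LCAT, which esterifies plasma cholesterol (5.69), followed the same direction. APOA1, the main protein of high density lipoprotein, was also higher in liver but by less. It was at 27734, 25854 and 34894 FPKM in the livers and at 10501, 8947 and 8506 FPKM in the fats, where its mean was second to that of FABP4. Its log2 fold change of 1.66 ± 0.16 (limma adjusted p = 6.27e-05) was 0.42 and not called after quantile normalization, and it was not called when genes below the filter were tested as well (adjusted p = 0.0657). APOA2, the partner of APOA1 in these particles in mammals, was at 7582, 8039 and 7039 FPKM in the livers and only 9.46, 28.5 and 5.50 FPKM in the fats (9.22 ± 0.49), so the fat level of APOA1 was not shared by APOA2. PLTP, the phospholipid transfer protein, was higher in fat (-2.26 ± 0.21). SCARB1, the receptor for high density lipoprotein, was at 8.04, 19.1 and 12.7 FPKM in the livers and 11.8, 17.4 and 12.6 FPKM in the fats, with no call (-0.12 ± 0.29).

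Most genes of amino acid breakdown were higher in liver. Of 49 tested genes 41 were higher in liver, 6 were higher in fat and 2 were not called (median 2.91). Of the 41, 16 had a fat mean below 1 FPKM and passed the filter through their liver level. TAT, which starts tyrosine breakdown, was at 686, 644 and 561 FPKM in the livers and 1.17, 0.96 and 0.58 FPKM in the fats (8.38 ± 0.15). HPD, the next enzyme of that path (7.59), and MAT1A, which makes S-adenosylmethionine (7.32), were among the largest. BCAT1, which transaminates branched-chain amino acids, was higher in fat, at 1.12, 3.04 and 1.28 FPKM in the livers and 34.4, 33.0 and 32.9 FPKM in the fats (-3.68 ± 0.24). PRODH, proline dehydrogenase, was also higher in fat (-3.16 ± 0.26). CPS1, the urea cycle entry enzyme of mammalian liver, was below the filter, at 0.43, 0.32 and 0.30 FPKM in the livers and 0.10, 0.07 and 0.12 FPKM in the fats.

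Birds excrete nitrogen as uric acid, which they make through the purine pathway. Of 19 tested purine and urate genes 12 were higher in liver and 7 were higher in fat (median 1.44), against 16.6% and 59.4% of all tested genes. PRPS2, which makes the ribose donor, was at 1249, 1359 and 909 FPKM in the livers and 1.11, 4.29 and 2.64 FPKM in the fats (8.39 ± 0.33). ATIC, which closes the purine ring, was at 2916, 3732 and 3308 FPKM in the livers and 115, 121 and 91.4 FPKM in the fats (4.92 ± 0.15). ADSL (4.49), GART (4.17) and PPAT, the committed step (3.04), followed. XDH, which forms uric acid, was at 67.3, 66.2 and 106 FPKM in the livers and 0.46, 1.41 and 1.65 FPKM in the fats (5.23 ± 0.27). The genes higher in fat included ADA, which deaminates adenosine (-2.69), AMPD3 (-2.32), HPRT1, which reuses hypoxanthine and guanine (-2.31), and GDA (-2.0). HPRT1 was at 2.68, 3.72 and 3.09 FPKM in the livers and 19.7, 17.6 and 21.6 FPKM in the fats. PRPS1, the relative of PRPS2, was at 11.4, 12.4 and 13.9 FPKM in the livers and 51.7, 49.7 and 51.9 FPKM in the fats (-1.95 ± 0.11), so the tissues did not overlap for either gene.

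Most genes that make glucose or handle fructose were also higher in liver. Of 21 tested members 18 were called in that direction, 2 were higher in fat and 1 was not called (median 4.54). Of the 18, 4 had a fat mean below 1 FPKM. FBP1, fructose-1,6-bisphosphatase, was at 1169, 1009 and 969 FPKM in the livers and 2.98, 7.95 and 7.81 FPKM in the fats (7.27 ± 0.31). The gene listed as LOC100857298, which the RefSeq table names G6PC and which releases free glucose, had a log2 fold change of 7.62 ± 0.31. KHK, which phosphorylates fructose, had 7.07 ± 0.16. PCK2, the mitochondrial form of the enzyme that commits to glucose synthesis, was steady, at 903, 1018 and 1012 FPKM in the livers and 34.6, 34.2 and 24.8 FPKM in the fats. PCK1, the cytosolic form, was at 83.0, 88.0 and 537 FPKM in the livers and 0.53, 0.47 and 0.66 FPKM in the fats (6.68 ± 0.66), liver 3 being far above the others. The gene listed as PKM, which the RefSeq table names PKLR, was higher in fat (-3.24 ± 0.16). G6PC3, the widely expressed relative of G6PC in mammals, was higher in fat as well (-2.08 ± 0.20).

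In the bile acid list 20 of 22 tested genes were higher in liver, 0 were higher in fat and 2 were not called (median 3.48). Of the 20, 10 had a fat mean below 1 FPKM and passed the filter through their liver level, so the count is a description. SLCO1B1, an uptake carrier which the RefSeq table names SLCO1B3, was at 261, 184 and 168 FPKM in the livers and 0.17, 0.43 and 0.07 FPKM in the fats (7.37 ± 0.19). CYP27A1, which oxidizes the sterol side chain, had 6.77 ± 0.16, BAAT, which conjugates bile acids, had 5.39 ± 0.20, and the bile acid receptor NR1H4 had 5.09 ± 0.27. CYP7A1, the rate-limiting enzyme of the classic path, was low and uneven, at 2.42, 5.88 and 0.16 FPKM in the livers and 0.16, 0.09 and 0.03 FPKM in the fats. Liver 3 equalled the highest fat, the call was missed (1.46 ± 0.58, limma adjusted p = 0.0503), and without liver 3 the log2 fold change was 2.15 and called. With the replicate number as a block the gene was called too (limma adjusted p = 0.0194). On the high-fat diet it was called higher in liver (2.56, limma adjusted p = 0.00322).

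Of 57 tested genes of xenobiotic metabolism 44 were higher in liver, 8 were higher in fat and 5 were not called (median 1.94). Of the 44, 15 had a fat mean below 1 FPKM and passed the filter through their liver level. CYP2K1L, which the RefSeq table names CYP2AC1, was at 1914, 1590 and 1579 FPKM in the livers and 1.63, 3.05 and 0.52 FPKM in the fats (9.38 ± 0.32). CYP2H1, the phenobarbital-inducible cytochrome of chicken liver, was at 330, 291 and 257 FPKM in the livers and 0.34, 0.53 and 0.06 FPKM in the fats (7.82 ± 0.17). CYP2H1 met the on-off definition, and CYP2K1L did not, with 2 fats above 1 FPKM. The aldehyde oxidases were higher in fat. AOX1 was at 0.27, 1.49 and 4.98 FPKM in the livers and 14.7, 17.8 and 9.73 FPKM in the fats (-2.46 ± 0.52), and AOX2 had -2.37 ± 0.40. Both oxidases were highest in liver 3 among the livers and lowest in fat 3 among the fats.

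Fatty acid synthesis genes were called in both directions. Of 30 tested lipogenesis genes 15 were higher in liver, 10 were higher in fat and 5 were not called (median 0.93). Of all tested genes, 16.6% were called higher in liver and 59.4% higher in fat. The list took 0.526% ± 0.0218 of the liver FPKM and 0.794% ± 0.00495 of the fat FPKM. Without the 10 highest genes of either tissue, THRSP of this list among them, the order of the shares turned, to 0.575% in liver and 0.371% in fat. The genes higher in liver included ELOVL6, which lengthens palmitate and was at 212, 173 and 313 FPKM in the livers and 2.70, 5.17 and 3.71 FPKM in the fats (5.58 ± 0.26), and ELOVL2, which lengthens polyunsaturated fatty acids, had 5.79 ± 0.15. MLXIPL, the carbohydrate-responsive activator ChREBP, was at 55.3, 62.0 and 44.4 FPKM in the livers and 1.62, 1.80 and 1.05 FPKM in the fats (4.46 ± 0.17). SREBF1 (2.13 ± 0.23), ACLY, which supplies cytosolic acetyl-CoA (2.19 ± 0.13), and ACACA, the carboxylase that makes malonyl-CoA (1.01 ± 0.18), were higher in liver by less.

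FASN, the synthase itself, was at 14.4, 12.8 and 16.2 FPKM in the livers and 23.9, 23.5 and 17.8 FPKM in the fats. It was slightly higher in fat without overlap (-0.55 ± 0.15, limma adjusted p = 0.0115), but the value became -0.02 after quantile normalization and 0.17 after median-ratio scaling, both not called. The fit of all 12 libraries did not call it either (limma adjusted p = 0.347), and on the high-fat diet its tissue difference was 1.52 and not called. SCD, the desaturase, was at 64.1, 8.37 and 40.2 FPKM in the livers and 5.03, 8.06 and 29.4 FPKM in the fats, with no call (1.31 ± 0.82), and without liver 2 its log2 fold change was 2.13 and called. The genes higher in fat included LPIN1, a phosphatidate phosphatase (-3.67 ± 0.32), ACACB, the carboxylase at the mitochondrial surface (-3.19 ± 0.22), DGAT2, which closes triglyceride synthesis (-2.81 ± 0.34), and ACSS2, which activates acetate (-2.50 ± 0.20). THRSP, a lipogenic nuclear protein also called Spot 14, was at 646, 511 and 400 FPKM in the livers and 2212, 2055 and 2553 FPKM in the fats (-2.15 ± 0.19). Its copy THRSPB was at 103, 113 and 65.9 FPKM in the livers and 769, 835 and 498 FPKM in the fats (-2.89 ± 0.26). On the high-fat diet the tissue difference of THRSPB was 0.48 and not called. THRSPB had the smallest p of the test of diet on the tissue difference (1.23e-05), which was 0.118 after adjustment over all genes and not called, and it was called with the replicate block (limma adjusted p = 0.0374).

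Most listed genes of fatty acid oxidation and ketone body metabolism were higher in liver, with 30 of 35 tested genes called that way, 3 higher in fat and 2 not called (median 1.81). EHHADH of the peroxisomes had 5.83 ± 0.12 and CPT1A, the gate to mitochondria, had 2.79 ± 0.11. The thiolase ACAT1, which acts in the making and in the use of ketone bodies, was at 584, 654 and 623 FPKM in the livers and 98.2, 103 and 128 FPKM in the fats (2.50 ± 0.13). A pair of other ketone body enzymes was higher in fat. OXCT1, which activates acetoacetate and which mammalian hepatocytes lack, was at 1.90, 3.11 and 2.41 FPKM in the livers and 28.9, 29.1 and 32.2 FPKM in the fats (-3.18 ± 0.15). BDH1, which interconverts the ketone bodies and which the RefSeq table names BDH1A, was at 1.88, 2.86 and 3.65 FPKM in the livers and 36.9, 33.2 and 36.7 FPKM in the fats (-3.30 ± 0.18). The livers and fats did not overlap for any of these 3 genes.

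Sterol synthesis genes differed less. Of 23 tested members 12 were higher in liver, 3 were higher in fat and 8 were not called (median 0.62). HMGCS1, an early enzyme of the path, was the largest, at 240, 308 and 301 FPKM in the livers and 6.47, 5.27 and 4.65 FPKM in the fats (5.46 ± 0.15), and ACAT2 had 4.20.

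**Figure D3:**
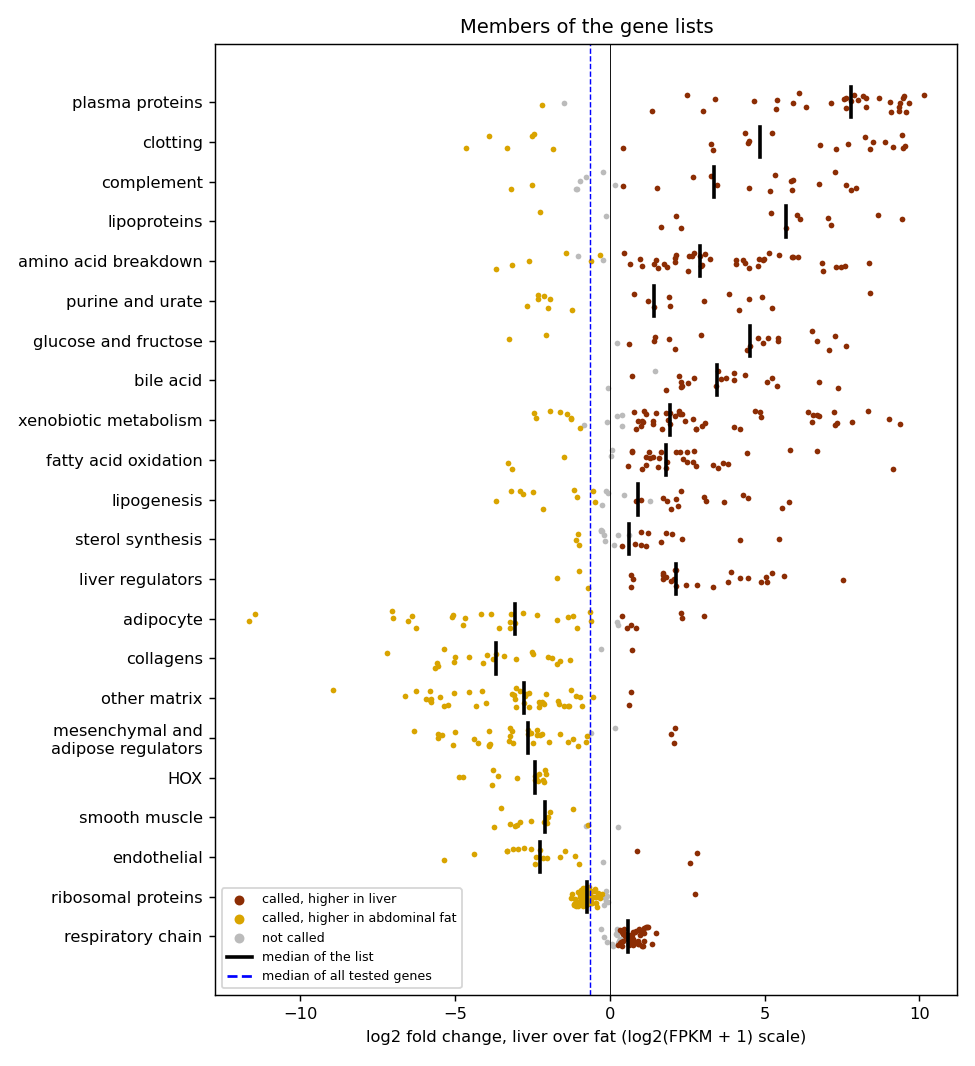
Log2 fold change, liver over fat, of each tested member of 22 gene lists, with calls coloured by direction. The black bar is the list's median, from 7.81 for plasma proteins to -3.68 for collagens, and the dashed line is the median of all tested genes at -0.65.

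Most regulators of liver identity were higher in liver. Of 28 tested liver transcription factors 25 were higher in liver and 3 were higher in fat (median 2.14), and 9 were on-off genes. Of the 25, 14 had a fat mean below 1 FPKM and passed the filter through their liver level. CREB3L3, a membrane-bound factor of fasting and secretion genes, was at 247, 242 and 238 FPKM in the livers and 0.31, 0.55 and 0.08 FPKM in the fats (7.55 ± 0.15). HNF4beta, another HNF4 gene, which mammals lack, was at 51.4, 56.6 and 61.4 FPKM in the livers and 0.15, 0.09 and 0.22 FPKM in the fats (5.64 ± 0.12). HNF4A itself was lower than HNF4beta, at 15.5, 17.3 and 9.53 FPKM in the livers and 0.05, 0.06 and 0.00 FPKM in the fats (3.83 ± 0.22). FOXA1 had 5.05 ± 0.21. FOXA2 was at 13.5, 14.3 and 14.7 FPKM in the livers and was listed at 0.00, 0.03 and 0.00 FPKM in the fats (3.91 ± 0.12). CEBPA, which acts in hepatocytes and adipocytes alike, was higher in fat, at 135, 177 and 91.7 FPKM in the livers and 463, 497 and 339 FPKM in the fats (-1.71 ± 0.25, limma adjusted p = 0.00058). The livers and fats did not overlap for any of these factors.

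Abdominal fat was led by lipid-binding proteins. FABP4, the adipocyte fatty acid carrier, was at 3.80, 2.55 and 3.87 FPKM in the livers and 15333, 11584 and 15730 FPKM in the fats. On the log2 scale used here this was the largest difference of all (-11.66 ± 0.18, limma adjusted p = 3.68e-08). The means differed 4173-fold, less than the 9555-fold of RBP7, which was nearer 0 in the livers. RBP7, a cellular retinol-binding protein found in adipocytes and their capillaries, was at 0.28, 0.27 and 0.73 FPKM in the livers and 3702, 3246 and 5281 FPKM in the fats (-11.46 ± 0.21). FABP3, known as the heart form, came next, at 1.09, 1.52 and 1.38 FPKM in the livers and 1588, 1021 and 1210 FPKM in the fats (-9.07 ± 0.17). The caveolae coat genes CAV1 (-7.05) and CAV2 (-6.99) were among the 15 largest changes towards fat, with VIM, the mesenchymal filament (-7.45), ANXA1 (-7.97) and the microfibril gene MFAP5 (-8.93). A pair of receptors stood among them too. SSTR2, a somatostatin receptor, was at 0.10, 0.12 and 0.07 FPKM in the livers and 289, 294 and 259 FPKM in the fats (-8.0 ± 0.10). RET, a receptor tyrosine kinase known from enteric neurons and kidney, was at 0.14, 0.15 and 0.09 FPKM in the livers and 146, 137 and 167 FPKM in the fats (-7.07 ± 0.11). Both receptors were uniform across the 3 fats.

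Of 35 tested adipocyte genes 26 were higher in fat, 7 were higher in liver and 2 were not called (median -3.06). Of all tested genes, 59.4% were called higher in fat. The list took 0.229% ± 0.00953 of the liver FPKM and 5.94% ± 0.521 of the fat FPKM. Lipid droplet and lipolysis genes were prominent. PLIN1, the coat of the storage droplet, was at 22.1, 17.9 and 10.98 FPKM in the livers and 1961, 1483 and 1402 FPKM in the fats (-6.53 ± 0.25). PNPLA2, the triglyceride lipase, had -4.68 ± 0.15, and its inhibitor G0S2 was at 56.0, 39.4 and 208 FPKM in the livers and 1412, 1528 and 1262 FPKM in the fats (-4.16 ± 0.55). CIDEC, which fuses droplets, was also well expressed in the livers, at 71.2, 123 and 104 FPKM, against 628, 444 and 455 FPKM in the fats (-2.36 ± 0.23). LPL, which releases fatty acids from lipoproteins, was at 14.6, 12.8 and 11.3 FPKM in the livers and 1011, 1105 and 1100 FPKM in the fats (-6.28 ± 0.12), and the uptake receptor CD36 had -3.59 ± 0.15. ADIPOQ, the hormone adiponectin, was at 0.69, 0.35 and 0.53 FPKM in the livers and 153, 117 and 110 FPKM in the fats (-6.38 ± 0.16). PPARG, the factor that drives adipocyte differentiation, was at 0.68, 1.08 and 0.91 FPKM in the livers and 59.2, 68.4 and 59.4 FPKM in the fats (-5.07 ± 0.13). The members higher in liver included AQP9, a glycerol channel (3.03 ± 0.32), STEAP4, a metalloreductase (2.34 ± 0.30), and GPAM, the first enzyme of glycerolipid synthesis (2.30 ± 0.13). AQP9 is a hepatocyte gene in mammals.

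Most collagens and other matrix genes that passed the filter were higher in fat. Of 23 tested collagen genes 21 were higher in fat, 1 was higher in liver and 1 was not called (median -3.68), while 16 of the 39 matched were below the filter and 8 of the 21 had a liver mean below 1 FPKM. COL3A1, of the fibrils in soft tissue, was at 43.7, 36.8 and 47.9 FPKM in the livers and 2321, 2098 and 2079 FPKM in the fats (-5.63 ± 0.13). COL1A1 (-5.58 ± 0.16), COL6A3 (-5.57 ± 0.27) and COL1A2 (-5.36 ± 0.11) changed by similar amounts, and COL4A1 of basement membranes by less (-4.09 ± 0.18). COL28A1, listed at 0.04, 0.00 and 0.04 FPKM in the livers, was at 132, 166 and 154 FPKM in the fats (-7.20 ± 0.12). COL18A1 was the gene not called, at 36.1, 45.6 and 38.9 FPKM in the livers and 45.3, 45.0 and 58.5 FPKM in the fats, and its log2 fold change of -0.29 turned to 0.45 and was called after median-ratio scaling. Of 46 tested other matrix genes 44 were higher in fat and 2 were higher in liver (median -2.76), against 59.4% and 16.6% of all tested genes. A further 8 of the 54 matched were below the filter. Of the 44, 16 had a liver mean below 1 FPKM and passed the filter through their fat level, so the count is a description. POSTN, periostin, was at 2.05, 3.90 and 3.63 FPKM in the livers and 270, 357 and 688 FPKM in the fats (-6.63 ± 0.35). SPARC, which binds collagen, was at 120, 81.8 and 122 FPKM in the livers and 2546, 2412 and 2549 FPKM in the fats (-4.54 ± 0.17). The fibroblast markers THY1 (-6.74 ± 0.22) and PDGFRA (-4.93 ± 0.15) moved in the same direction, and their part in the matrix difference was not tested.

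Most mesenchymal and adipose transcription factors that passed the filter were higher in fat. Of 37 tested members 32 were higher in fat, 3 were higher in liver and 2 were not called (median -2.65), and 10 were on-off genes. Of the 32, 20 had a liver mean below 1 FPKM and passed the filter through their fat level, so the count is a description. MEOX2, a homeobox factor of mesoderm, was at 0.25, 0.39 and 0.12 FPKM in the livers and 97.6, 113 and 86.4 FPKM in the fats (-6.32 ± 0.14). SNAI2 (-5.55 ± 0.10), PRRX1 (-5.54 ± 0.16) and OSR2 (-5.43 ± 0.13), all known from mesenchyme, followed. BARX1, a homeobox factor of stomach mesenchyme in mice, was listed at 0 in all livers and was at 20.6, 19.3 and 19.8 FPKM in the fats. The 3 genes higher in liver were GATA6 (2.10 ± 0.17), GATA4 (2.07 ± 0.16) and RXRG (1.97 ± 0.22). GATA6 was expressed in both tissues, at 87.0, 85.0 and 58.1 FPKM in the livers and 16.1, 16.8 and 17.9 FPKM in the fats.

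HOX genes encode position along the body axis, and all 16 that passed the filter were higher in fat (median -2.41). Of these 16, 12 had a liver mean below 1 FPKM and passed it through their fat level, so the direction is a description. Of 34 HOX genes in the files, 18 were below the filter. The highest were in the HOXB cluster. HOXB4 was at 4.11, 3.80 and 3.85 FPKM in the livers and 149, 133 and 115 FPKM in the fats (-4.75 ± 0.12). HOXB3 was at 1.78, 1.52 and 2.08 FPKM in the livers and 50.7, 41.6 and 26.4 FPKM in the fats. HOXB6 was at 0.05, 0.05 and 0.00 FPKM in the livers and 31.2, 34.4 and 22.7 FPKM in the fats (-4.86 ± 0.17). HOXB5, HOXB4 and HOXB3 had a measurable liver level while HOXB6 and HOXB7 were at or near 0 there. Genes at the far end of the clusters were nearly silent in both tissues. HOXA9 was at 0.00, 0.00 and 0.07 FPKM in the livers and 0.67, 1.19 and 0.36 FPKM in the fats, HOXA10 was listed at 0 in the livers and at 0.16, 0.21 and 0.00 FPKM in the fats, and HOXC13, HOXD12 and HOXB13 were listed at 0 in all 6 libraries.

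Pairs of related genes were listed as a known liver form and another form, with earlier results of these data known, and some genes stand in more than 1 pair, so their count is a description. Of 31 pairs of relatives listed, 25 matched the files with both members, and in 16 of these the members were called in opposite directions. Of all tested genes, 16.6% were called higher in liver and 59.4% higher in fat. Fatty acid-binding proteins gave the widest example. FABP1 was at 1592, 1536 and 1284 FPKM in the livers and 1.14, 6.11 and 0.67 FPKM in the fats (8.96 ± 0.49), and LBFABP, the basic liver form absent from mammals, had 8.99 ± 0.45, against -11.66 for FABP4. FABP7 had 3.53 ± 0.27 and FABP5 had -6.85 ± 0.22. Retinol carriers divided in the same way, with RBP4A at 9.06 ± 0.39 and RBP7 at -11.46 ± 0.21.

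In sugar metabolism the low-affinity transporter SLC2A2 was at 46.4, 50.9 and 40.4 FPKM in the livers and 0.13, 0.07 and 0.07 FPKM in the fats (5.42 ± 0.12), while SLC2A1 had -2.14 ± 0.21 and SLC2A3 had -2.18 ± 0.16. The pairs GYS2 (5.12) and GYS1 (-1.73), PYGL (1.42) and PYGB (-1.06), and PFKL (2.81) and PFKP (-2.63) gave the same picture for glycogen synthase, glycogen phosphorylase and phosphofructokinase. PYGL was at 108, 103 and 104 FPKM in the livers and 39.5, 40.8 and 36.0 FPKM in the fats, above PYGB at 6.91 ± 1.25 FPKM in the livers and 15.5 ± 2.33 FPKM in the fats (SD, n = 3 each). Among the PPAR genes PPARA had 3.33 ± 0.15 and PPARG had -5.07 ± 0.13. Of the 16 pairs with opposite calls, only CEBPB (1.72 ± 0.22) and CEBPA (-1.71 ± 0.25) had the member listed as the liver form, CEBPA, on the fat side. In the pairs ACSL5 with ACSL1 and HNF4A with NR2F2 the fat-side member was called as deposited (-0.59 and -0.73), but its sign turned to 0.17 and 0.02 after median-ratio scaling. ACSL1 was not called without liver 3 (-0.44), without fat 3 (-0.45) or in the fit of all 12 libraries (-0.59), and PYGB was not called after quantile normalization (-0.40) or median-ratio scaling (-0.37). Other pairs stayed on 1 side. LDHA (3.33 ± 0.32) and LDHB (4.14 ± 0.13) were both higher in liver, as were PCK1 with PCK2. In the perilipin pair PLIN1 (-6.53 ± 0.25) and the member listed as the liver form were both higher in fat. The hexokinases HK1 (-2.58 ± 0.17) and HK2 (-2.55 ± 0.16), which were not among the listed pairs, were higher in fat as well.

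**Figure D4:**
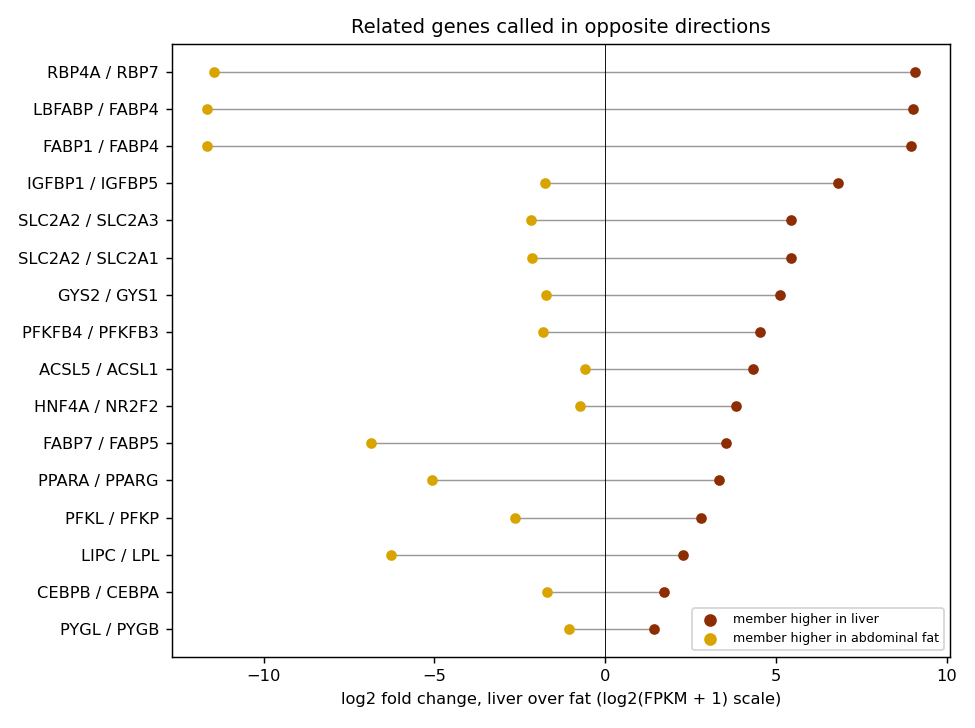
Log2 fold change, liver over fat, of the members of 16 pairs of related genes called in opposite directions, with the member higher in liver and the member higher in abdominal fat joined by a line. The widest pairs are RBP4A with RBP7 and LBFABP or FABP1 with FABP4, and the fat-side members ACSL1 and NR2F2 turned to 0.17 and 0.02 after median-ratio scaling.

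Growth factor genes of the IGF axis were called in both directions. Of 22 tested members 9 were higher in liver, 8 were higher in fat and 5 were not called (median 0.38). Of all tested genes, 16.6% were called higher in liver and 59.4% higher in fat, with a median of -0.65. IGF1, the growth hormone-dependent factor, was at 11.7, 11.5 and 12.03 FPKM in the livers and 0.88, 1.60 and 1.58 FPKM in the fats (2.45 ± 0.16). IGFALS, which stabilizes it in plasma, had 3.20 ± 0.15. IGF2 was at 52.0, 46.9 and 67.5 FPKM in the livers and 50.1, 54.2 and 57.8 FPKM in the fats, with overlapping groups and no call (0.02 ± 0.15), although it was called at 0.77 after median-ratio scaling. The binding proteins separated: IGFBP1 was at 179, 77.9 and 158 FPKM in the livers and 0.10, 0.20 and 0.20 FPKM in the fats (6.81 ± 0.29), and IGFBP2 had 3.52 ± 0.41. IGFBP7 (-2.73 ± 0.19), IGFBP5 (-1.76 ± 0.24) and IGFBP3 (-1.69 ± 0.13) were higher in fat.

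Markers of other cells differed between the tissues as well. Beside the counts here, 59.4% of all tested genes were called higher in fat and 16.6% higher in liver. Of 21 tested endothelial genes 17 were higher in fat, 3 were higher in liver and 1 was not called (median -2.25), and the list summed to 265 to 352 FPKM in the livers and 1250 to 1599 FPKM in the fats. PECAM1, a junction protein of vessels, was at 8.04, 14.1 and 6.29 FPKM in the livers and 362, 434 and 417 FPKM in the fats (-5.34 ± 0.25). The genes higher in liver included STAB2, a scavenger receptor of liver sinusoids (2.60 ± 0.31), and PROX1, which mammalian hepatocytes also express (2.82 ± 0.14). Both had a fat mean below 1 FPKM and passed the filter through their liver level. STAB1 of the same list was higher in fat (-1.13 ± 0.22). Smooth muscle genes were higher in fat in 14 of 16 cases, with 0 higher in liver (median -2.08), and TAGLN was at 7.81, 5.84 and 7.88 FPKM in the livers and 171, 77.5 and 92.3 FPKM in the fats (-3.73 ± 0.29). Of the 14, 2 had a liver mean below 1 FPKM. Of 14 tested stellate cell and fibroblast genes 11 were higher in fat and 3 were higher in liver (median -2.71). Of the 11, 6 had a liver mean below 1 FPKM and passed the filter through their fat level. The 11 included PDGFRB (-2.85), HGF (-2.02), RGS5 (-1.53) and NGFR (-1.14). The genes higher in liver included RELN (1.34 ± 0.22) and LRAT (1.15 ± 0.16), known from stellate cells, at 1.74, 1.90 and 2.29 FPKM for LRAT in the livers and 0.25, 0.40 and 0.37 FPKM in the fats. LRAT thus passed the filter through its liver level. Of 8 tested cholangiocyte genes 4 were higher in liver and 4 were higher in fat (median -0.69). Of those higher in liver, 2 had a fat mean below 1 FPKM, and of those higher in fat, 1 had a liver mean below 1 FPKM. EPCAM, a cholangiocyte marker in mammals, was at 63.9, 70.8 and 81.7 FPKM in the livers and 0.00, 0.07 and 0.04 FPKM in the fats (6.13 ± 0.12). In contrast, CFTR (-2.70), KRT7 (-2.51), ANXA4 (-2.15) and the gene listed as KRT19 (-2.10), which the RefSeq table names KRT24, were higher in fat. Fat 3 was highest for both keratins, and neither was called after quantile normalization (-1.90 for KRT7 and -1.48 for KRT19), after median-ratio scaling (-1.92 and -1.52) or without liver 1 (-2.29 and -1.96). KRT19 was also not called without liver 2, liver 3, fat 2 or fat 3, nor when genes below the filter were tested. Skeletal muscle genes were nearly absent, with 14 of 16 matched genes below the filter. Lymphocyte genes were mostly not called (14 of 17).

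Macrophage genes varied between the libraries of a tissue. Of 14 tested members 2 were higher in liver, 4 were higher in fat and 8 were not called (median -0.86), and the list summed to 777, 2035 and 1250 FPKM in livers 1 to 3 and 2046, 3943 and 3782 FPKM in fats 1 to 3. Liver 2 stood apart in some members, among them genes known from Kupffer cells, the liver macrophages of mammals. Other members of the list, such as CD74 below, were not highest in liver 2. MARCO, a scavenger receptor, was at 2.91, 137 and 17.3 FPKM in the livers and 4.91, 7.42 and 12.8 FPKM in the fats, and TIMD4 was at 3.72, 75.1 and 8.72 FPKM in the livers and 1.85, 3.69 and 3.71 FPKM in the fats. Neither was called (1.28 ± 1.15 for MARCO and 1.93 ± 0.92 for TIMD4), but both were called without liver 1, at 2.51 and 2.77, and TIMD4 was called with the replicate block (limma adjusted p = 0.0216), after quantile normalization (2.48) and after median-ratio scaling (2.55). On the high-fat diet both were called higher in liver, at 2.89 for MARCO and 2.90 for TIMD4 (limma adjusted p = 0.0405 and 0.0124). The complement gene C1QA was at 13.8, 159 and 32.1 FPKM in the livers and 51.4, 131 and 102 FPKM in the fats. It was not called with all libraries (-1.06 ± 0.81) and was called at -2.02 without liver 2, and also with the replicate number as a block (limma adjusted p = 0.0409). The tissue difference of C1QA on the high-fat diet was 0.19 and not called. CD74, of antigen presentation, was higher in fat in all libraries, at 608, 851 and 874 FPKM in the livers and 1709, 3229 and 3092 FPKM in the fats (-1.74 ± 0.27).

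Single libraries also set the extremes of other genes. In liver 1, APOV1, the very low density lipoprotein component of laying hens, was at 325 FPKM, against 7.37 and 17.7 FPKM in livers 2 and 3, and it was listed at 0 in all fats. In liver 3, SOCS3, a feedback inhibitor of cytokine signalling, was at 122 FPKM, against 4.13 and 3.25 FPKM in livers 1 and 2 and 5.73, 5.82 and 7.17 FPKM in the fats. Its difference was not called (0.94 ± 1.18), and without liver 3 it was -0.63 and called (limma adjusted p = 0.0136). The same liver had the highest PCK1. In fat 2, the heterophil defensin AvBD2, which the RefSeq table names DEFB4A, stood out: it was at 1.52, 0.75 and 0.38 FPKM in the livers and at 0.75, 33.7 and 0.98 FPKM in fats 1 to 3. LECT2, listed among the plasma proteins because mammalian liver secretes it, had the same pattern, at 1.59, 0.55 and 0.56 FPKM in the livers and 0.45, 33.9 and 1.69 FPKM in the fats. In fat 3, AVD, avidin, was the outstanding gene, at 1.11, 0.46 and 0.69 FPKM in the livers and 1.05, 1.85 and 57.9 FPKM in fats 1 to 3.

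**Figure D5:**
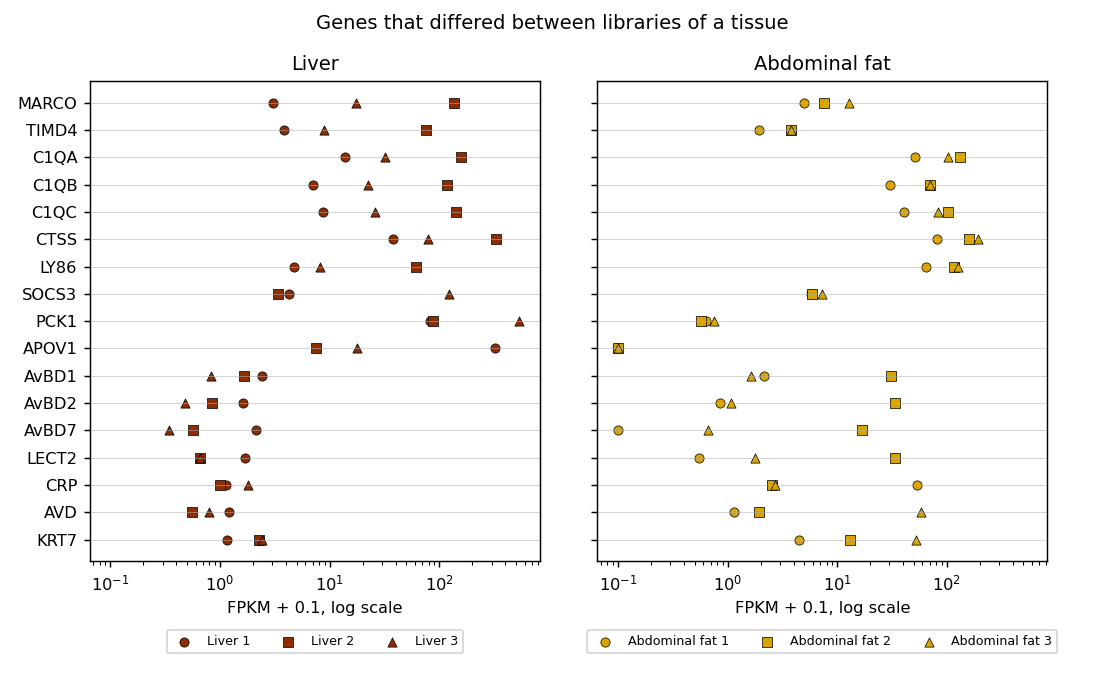
FPKM plus 0.1 on a log axis of 17 genes that differed between libraries of a tissue, in the 3 livers (left panel) and the 3 abdominal fats (right panel), with a symbol for each library. MARCO, TIMD4 and the C1Q genes are highest in liver 2, SOCS3 and PCK1 in liver 3, APOV1 in liver 1, and the defensins and LECT2 in fat 2.

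Some abundant genes had like levels in both tissues. For 4178 genes (33.4%) the 95% interval of the log2 fold change lay within 1 unit of 0 as deposited. Some of these genes were also called, because a difference within this range can still pass the adjusted p threshold. With 0.1 instead of 1 added to the FPKM, 3335 genes met this definition. FTH1, the ferritin heavy chain, was at 7752, 5312 and 6398 FPKM in the livers and 7181, 4679 and 8756 FPKM in the fats (-0.05 ± 0.25), and it was lowest in library 2 of each tissue. It was called at -1.17 after quantile normalization. EEF2, an elongation factor, was at 801, 850 and 843 FPKM in the livers and 837, 871 and 812 FPKM in the fats (-0.01 ± 0.10), and it was called at 0.75 after median-ratio scaling. Ribosomal protein genes took 6.42% ± 0.364 of the liver FPKM and 12.4% ± 0.284 of the fat FPKM. Of 74 tested, 66 were higher in fat, 1 was higher in liver and 7 were not called, but their median of -0.73 was close to that of all genes and was 0.03 after median-ratio scaling. The gene higher in liver was RPS27L, a relative of a ribosomal protein gene (2.76 ± 0.13). Respiratory chain genes ran against the median of all genes. Of 63 tested members 47 were higher in liver, 0 were higher in fat and 16 were not called (median 0.59). ATP5B, of the ATP synthase core, was at 748, 812 and 868 FPKM in the livers and 308, 269 and 280 FPKM in the fats (1.5 ± 0.11).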

How the data were processed

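Total RNA of flash-frozen livers and abdominal fats was extracted with Trizol and sequenced on the BGISEQ-500 platform. The authors deposited gene-level FPKM per library. The submitters' processing notes name HISAT2 2.0.4, Bowtie2 2.2.5 and RSEM 1.2.12, and the genome build is not given in the sources used here. No read counts were used here, so the sequencing depth is unknown and no counting interval could be given.

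Gene symbols are those of the files, and 15244 of 18332 gene IDs were found in the RefSeq table, whose names are given for several genes where they differ. Genes averaging 1 FPKM or more in the 6 libraries were tested on log2(FPKM + 1) with limma 3.58.1 in R 4.3.3 (lmFit, eBayes with trend), with tissue as the only term and Benjamini-Hochberg adjustment. The fitting code was checked on simulated data. Lists are described by counts and medians, without a set test. The genes named are the 15 largest changes in each direction, the 10 most abundant genes of a tissue, members of each list with large changes, calls against the list's direction or no call, HOX genes, related pairs and the genes with the largest spread between libraries. A few others were named for their known role after their values were seen. Some list members are counted but not reported singly here. Members and lists were chosen with earlier results of these data known.

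Livers and fats carry the same replicate numbers. After subtracting tissue means, libraries of the same number correlated at 0.295, 0.274 and 0.234 over 12492 genes and those of different numbers at -0.176 to -0.0858. Deviations from a tissue mean cancel out within the tissue, so positive same-number correlations force negative values among the others. The negative values are thus no separate sign of pairing. In the fits with a replicate block the numbers were taken to pair the libraries because of the positive same-number correlations. The sources used here do not state that paired libraries came from 1 bird. The main fit, with tissue as the only term, did not use this pairing. On the high-fat diet the pairing was less clear. Same-number correlations were 0.227, 0.398 and 0.121 there, and different-number correlations were -0.372 to 0.192. HN liver 3 correlated more with HN fat 1 (0.192) than with HN fat 3 (0.121). The fit with the replicate number as a block, other pseudocounts, filters, scalings and thresholds, and leaving out each library were run as alternatives. The block in the test of diet on the tissue difference was added after the unblocked result was seen. The search for motifs in promoters was not run, because promoter sequences were not used here.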

Additional observations from a re-analysis of the deposited data

Results flagged for a closer look

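The difference between liver and fat changed with diet for 4 genes when the replicate number within each diet was a block in the limma test, and for 0 genes without it. Each value is the log2 fold change, liver over fat, on the high-fat diet subtracted from that on the normal diet. The fit with the block was chosen after the unblocked result had been seen, and the pairing by number was less clear on the high-fat diet. For THRSPB the value was -3.37 ± 0.33 (SE, limma adjusted p = 0.0374, and 0.118 without the block). It was at 962, 466 and 398 FPKM in HN livers and 411, 378 and 421 FPKM in HN fats, against 103, 113 and 65.9 FPKM in NN livers and 769, 835 and 498 FPKM in NN fats. For the gene listed as LOC101748650 the value was -3.18 ± 0.29 (limma adjusted p = 0.0374, and 0.118 without the block), with 140, 55.6 and 49.8 FPKM in HN livers and 77.7, 47.2 and 60.1 FPKM in HN fats, against 14.1, 11.9 and 10.6 FPKM in NN livers and 101, 108 and 86.1 FPKM in NN fats. Both genes were higher in fat in every library on the normal diet, while livers and fats overlapped on the high-fat diet.

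For APOF, an apolipoprotein of plasma lipoproteins in mammals, the value was -2.72 ± 0.22 (limma adjusted p = 0.0357, and 0.323 without the block). It was at 236, 217 and 368 FPKM in HN livers and 3.25, 1.87 and 6.02 FPKM in HN fats, against 46.5, 63.7 and 105.8 FPKM in NN livers and 4.68, 6.78 and 8.59 FPKM in NN fats, so it was higher in liver on both diets. For the gene listed as LOC100857622 the value was -1.71 ± 0.17 (limma adjusted p = 0.0374, and 0.202 without the block), with 80.6, 65.7 and 51.2 FPKM in HN livers and 29.9, 21.0 and 17.5 FPKM in HN fats, against 15.9, 17.0 and 13.3 FPKM in NN livers and 18.0, 18.1 and 17.3 FPKM in NN fats.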

How the results depend on the processing

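Counts of calls depended mainly on scaling and threshold. Higher in liver, 3729 genes were called after quantile normalization, 4085 after median-ratio scaling and 1308 with the thresholds of the study (adjusted p up to 0.001, and 0.5 log2 units or more in either direction). Higher in fat, the counts were 4305, 3898 and 4587. On-off genes numbered 97 for liver and 49 for fat at limits of 20 and 0.5 FPKM, and 100 and 104 for fat after quantile normalization and median-ratio scaling. Genes with like levels numbered 8579 without a filter and 929 with an interval within 0.5 units of 0. Leaving out 1 library gave 1923 to 1989 calls higher in liver, 6817 to 7198 higher in fat, 195 to 213 and 178 to 186 on-off genes for liver and fat, and 3738 to 3890 genes with like levels. With the replicate block, 2129 genes were called higher in liver and 7540 higher in fat, and of the genes named only CYP7A1, C1QA and TIMD4 changed their call. The test of diet on the tissue difference called 0 genes without the block and 4 with it.

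Of 201 tested genes named in the text, 183 kept their call and direction under all 15 alternatives. Signs turned after median-ratio scaling for FASN (0.17), ACSL1 (0.17), NR2F2 (0.0167), COL18A1 (0.45), EEF2 (0.75) and LOC100857622 (0.51, and 0.35 after quantile normalization), and without liver 3 for SOCS3 (-0.63, the other single omissions reaching up to 1.80). List medians near 0 turned as well: ribosomal proteins after median-ratio scaling (0.0284), T and B cell genes after rescaling to the same sum (-0.0858) and without liver 2, liver 3 or fat 1 (leave-one-out range -0.155 to 0.214), granulocyte genes without fat 2 (range -1.73 to 0.74), cholangiocyte genes without a filter (0.0814), mesothelial genes with a filter at 5 FPKM (0.67) and after quantile normalization (0.0923), and gut and pancreas genes after quantile normalization (0.0383). Apart from the filters, which change the genes tested, the cause of these changes was not tested. The depth of the libraries is unknown, so the precision of genes below about 1 FPKM cannot be given.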
